A study of Homo sapiens with 12 samples.

Results

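The genes described here are 10 tubulin genes: TUBE1 (epsilon-tubulin), TUBD1 (delta), TUBG1 (gamma), TUBA1A, TUBA1B and TUBA1C (alpha), and TUBB, TUBB2A, TUBB2B and TUBB4B (beta). They were 10 of the 34318 genes for which the table held a matched transcript, and all 10 passed the filter on low counts in both experiments. The set was chosen by the ML60218 values of TUBE1, which was higher with ML60218 than with DMSO, so the ML60218 values of these genes are given as a description, with no test. The rule of choice did not use the POLR3A knockdown, which was tested. Earlier results of these data were known when the set was chosen, so this test may not be independent of the choice.

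All 12 libraries came from HEK293T, an established line derived from human embryonic kidney that takes up nucleic acids readily, and were made with a stranded mRNA kit. In the first experiment, cells were transfected with siControl, a control siRNA, or with siPOLR3A, which targets the gene of the largest subunit of RNA polymerase III, and collected after 2 days. In the second, cells received 0.1% DMSO as vehicle or 25 µM ML60218, an inhibitor of RNA polymerase III, for 4 hours. Each of the 4 groups had 3 libraries, and nothing in the labels says that these were separate cultures, so p-values measure only the spread between these libraries, which may be technical.

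Alpha- and beta-tubulin form the dimers from which microtubules are built, and gamma-tubulin sits in the ring complex that starts new microtubules at the centrosome. Delta- and epsilon-tubulin are needed to build and keep the triplet microtubules of centrioles. Cells adjust the mRNA of alpha- and beta-tubulin to the amount of free dimer: TTC5 recognises the first residues of a tubulin chain as it leaves the ribosome and, through SCAPER, brings the CCR4-NOT deadenylase to the mRNA.

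The first 30 coding bases of each gene are shown because they encode that start. They are read 5′ to 3′ from the principal transcript in GENCODE 29, with the first 4 codons in capitals.
TUBE1: ATGACCCAGTCGgtggtcgtacaggtcggc
TUBD1: ATGTCAATTGTAacagtgcaacttggtcag
TUBG1: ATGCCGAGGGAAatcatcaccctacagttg
TUBA1A: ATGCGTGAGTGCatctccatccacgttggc
TUBA1B: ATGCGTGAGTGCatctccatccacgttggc
TUBA1C: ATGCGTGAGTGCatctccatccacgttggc
TUBB: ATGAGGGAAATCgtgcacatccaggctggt
TUBB2A: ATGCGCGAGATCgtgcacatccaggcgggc
TUBB2B: ATGCGTGAGATCgtgcacatccaggcgggc
TUBB4B: ATGAGGGAAATCgtgcacttgcaggccggg

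The 3 alpha genes were identical over all 30 bases. TUBB and TUBB4B had the same first 4 codons. Those of TUBB2A and TUBB2B differed in bases but encode the same residues, Met-Arg-Glu-Ile, as those of TUBB and TUBB4B. TUBE1, TUBD1 and TUBG1 each had a start of their own. Over the whole coding sequence, TUBB2A and TUBB2B were 98.1% identical, TUBA1A and TUBA1B 97.2%, and TUBA1B and TUBA1C 97.3%, whereas TUBB was 84.9% identical to TUBB2A. Sequence shared between genes was counted on the same principal transcripts, which held 3.72% of the TPM of TUBA1C, 33.8% of TUBE1, 55.9% of TUBD1 and at least 96.4% of each other gene. A stretch of one read length (151 bases) that occurs in a transcript of another gene cannot be assigned from that read alone. Such stretches made up 0% of the principal TUBE1, TUBD1 and TUBB4B transcripts, 2.46% of TUBB, 6.09% of TUBG1 (all shared with TUBG2), 6.7% of TUBA1C, 6.74% of TUBA1A and 19% of TUBA1B. In TUBB2A they made up 49.3% and in TUBB2B 39.3%, most of it shared between these 2 genes. Values of TUBB2A and TUBB2B, and of the 3 alpha genes, are therefore uncertain to the extent that the deposited estimates divided shared reads between them.

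Libraries held between 37008325 and 49479476 estimated reads. POLR3A, the targeted gene, fell from 90.8 ± 3.56 to 17.6 ± 2.65 CPM (SD, n = 3 in each group; CPM are read counts scaled to library size with TMM factors) after its siRNA, a log2 fold change of -2.36 (edgeR, adjusted p = 1.94e-05). Of the markers looked at for this line, VIM was at 267 to 435, CDH2 at 42.7 to 65.6, KRT18 at 24.5 to 36.7, NEFM at 32.7 to 102, PAX2 at 3.36 to 5.19 and KRT8 at 2.08 to 6.18 TPM (transcript abundance corrected for length and scaled to a fixed total). Of the markers of other cells, PTPRC was at 0 TPM in all 12 libraries, PECAM1 reached 0.051, ALB 0.255 and DCN 1.21, while COL1A1 was at 18.2 to 28.1 TPM. The part of other cells in the results was not tested. In bulk libraries, fewer cells that express a gene and less of its mRNA per cell cannot be told apart.

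Levels were compared between genes in TPM, which correct for transcript length. The TPM of a gene are the sum over all its matched transcripts, coding or not. The mean TPM over the 12 libraries ran from 1377 for TUBA1B to 14.3 for TUBD1, a 96.2-fold range. TUBA1B was followed by TUBB at 812.7, TUBA1C at 415, TUBB4B at 251, TUBA1A at 101, TUBG1 at 89.8, TUBB2B at 79.9, TUBE1 at 62.4 and TUBB2A at 39.6 TPM. The first 4 genes and TUBD1 kept their places in every group, with no overlap of libraries between neighbours in the order. In siControl, the libraries of TUBA1A overlapped those of TUBG1, and those of TUBG1 overlapped those of TUBB2B. In siPOLR3A, TUBG1 overlapped TUBA1A. In DMSO, TUBG1 overlapped TUBB2B and TUBB2A overlapped TUBE1, and in ML60218 TUBA1A overlapped TUBB2B.

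**Figure D1:**
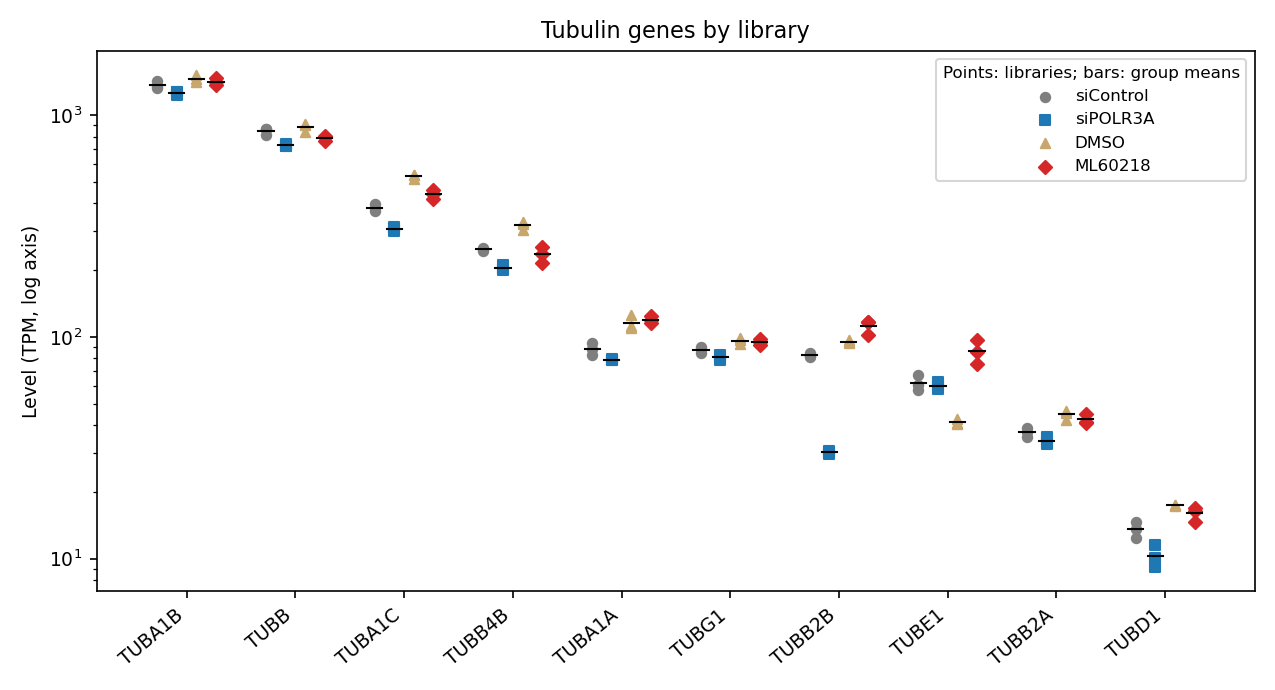
Level of each tubulin gene in TPM on a log axis. Each point is a library, the symbols mark the 4 groups and the short bars are group means of 3 libraries; TUBB2B in siPOLR3A (29.7 to 30.6 TPM) and TUBE1 in ML60218 (75.8 to 97.0 TPM) stand apart from their own controls.

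The TPM of TUBE1 were 67.1, 57.9 and 60.6 in siControl and 58.4, 62.4 and 60.3 in siPOLR3A, which overlap. They were 42.8, 40.8 and 40.6 in DMSO and 75.8, 85.2 and 97.0 in ML60218, which do not. In ML60218 its libraries overlapped those of TUBG1, and in DMSO those of TUBB2A. TUBB2B moved in the order in the other experiment: its mean of 82.6 ± 1.72 TPM in siControl lay above TUBE1, and its mean of 30.2 ± 0.473 TPM in siPOLR3A lay below TUBB2A at 34.1 ± 1.24 TPM, with no overlap (SD, n = 3).

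After POLR3A knockdown, the mRNAs of most of these 10 genes were lower: 9 of the 10 passed the test and all 9 fell. The fall was by a log2 fold change of 0.10 to 0.35 in 8 of them and by 1.47 in TUBB2B. Changes in this direction were common, since 29.2% of the 15404 genes tested passed the test as lower, 27.4% as higher and 56.6% in either direction. In CPM the groups did not overlap in 9 of the 10 genes, against 63.4% of all genes tested, and in TPM in 8, where TUBB2A also overlapped. The share of all genes was not computed in TPM. The median log2 fold change of the 10 genes was -0.20, against 0.01 over all genes tested. All p-values for this comparison are from edgeR's quasi-likelihood test with Benjamini-Hochberg adjustment over all genes tested.

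**Figure D2:**
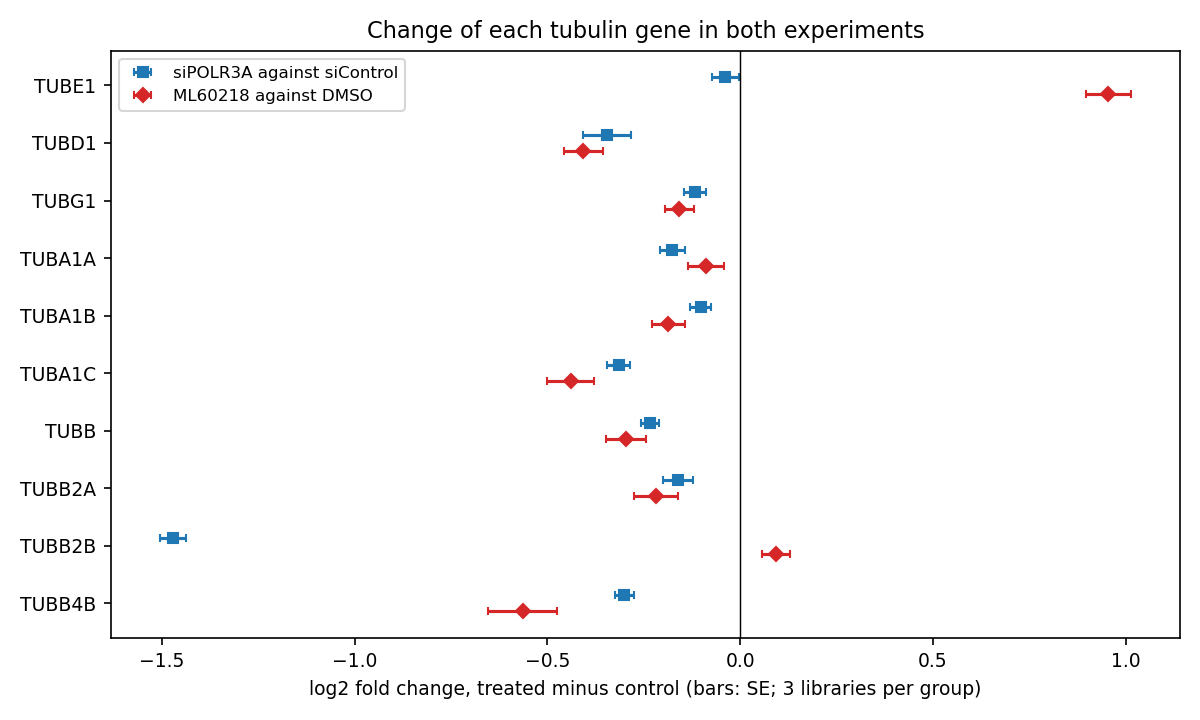
Fitted log2 fold change of each gene (x axis) after siPOLR3A (blue squares) and with ML60218 (red diamonds), each against its own control, with the standard error as bars and 3 libraries in each group. TUBB2B lies at -1.47 in the knockdown and TUBE1 at 0.96 in the drug experiment, and the other 8 genes are below 0 in both; the ML60218 values carry no test.

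TUBE1 (chr6:112070777-112087529, GRCh38, minus strand) was the exception. Its level was 73.3, 70.0 and 68.1 CPM in siControl and 68.9, 66.7 and 70.2 CPM in siPOLR3A. The groups overlapped, and the log2 fold change was -0.04 with a standard error of 0.0346 (adjusted p = 0.367). Under upper quartile and total count scaling the sign changed, to 0.02 and 0.01.

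TUBD1 (chr17:59859482-59892945, minus strand), the delta-tubulin gene, was at 20.2, 20.1 and 20.4 CPM in siControl. It was at 16.9, 16.4 and 14.5 CPM in siPOLR3A, below every control library. The log2 fold change was -0.35, with a standard error of 0.0625 and an adjusted p of 0.000296.

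TUBG1 (chr17:42609676-42615234, plus strand), the main gamma-tubulin gene, was at 99.3, 100.2 and 102.9 CPM in siControl and at 92.5, 95.2 and 91.2 CPM in siPOLR3A. The groups did not overlap, and the fall was -0.12 ± 0.0286 on the log2 scale (SE), with adjusted p = 0.00316. The call was lost under upper quartile scaling (adjusted p = 0.0939) and total count scaling (0.0599).

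Among the alpha genes, which lie together on chromosome 12, TUBA1C had the largest fall. TUBA1C (chr12:49188736-49274603, plus strand) was at 285, 292 and 302 CPM in siControl and at 240, 241 and 226 CPM in siPOLR3A, with no overlap and a change of -0.32 ± 0.0292 on the log2 scale (SE), with adjusted p = 4.92e-07. TUBA1A (chr12:49184796-49189324, minus strand) was at 102, 103 and 111 CPM in siControl and at 93.6, 93.6 and 93.0 CPM in siPOLR3A, with no overlap and a log2 fold change of -0.18 (adjusted p = 0.000433). The annotated spans of TUBA1A and TUBA1C overlap by 589 bases on opposite strands.

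TUBA1B (chr12:49127782-49131397, minus strand), the most abundant tubulin mRNA here, was at 1426, 1478 and 1528 CPM in siControl. Its siPOLR3A libraries were at 1381, 1404 and 1345 CPM, all below the lowest control. The log2 fold change of -0.10 ± 0.0275 (SE) had an adjusted p of 0.0058, and the call was lost under upper quartile scaling (adjusted p = 0.171) and total count scaling (0.102). With the reads of the 3 alpha genes summed, which removes the division of shared reads among them, the log2 fold change was -0.14 (adjusted p = 0.000696).

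TUBB2B (chr6:3224261-3231730, minus strand), a beta-tubulin isotype known for its role in migrating neurons, was the member that fell most. It was at 111, 119 and 119 CPM in siControl and at 41.8, 42.5 and 41.5 CPM in siPOLR3A. The fold was 0.361, or -1.47 ± 0.0347 on the log2 scale (SE; adjusted p = 4.77e-13). It was the only member among the 1.94% of tested genes that passed the test with a fall of at least 2-fold, and 0.597% of tested genes, itself included, had a log2 fold change as low or lower.

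Its near copy TUBB2A (chr6:3153669-3157526, minus strand) was at 42.2, 40.7 and 41.8 CPM in siControl and at 36.7, 36.1 and 38.7 CPM in siPOLR3A. The groups did not overlap, and the log2 fold change of -0.16 ± 0.0391 (SE) had an adjusted p of 0.00287. With limma on log2(TPM + 1) this call was lost (adjusted p = 0.0787). The summed reads of TUBB2A and TUBB2B fell from 158 ± 4.31 to 79.1 ± 1.01 CPM (SD, n = 3), a log2 fold change of -0.997 (adjusted p = 2.75e-12).

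The 100 bases before the RefSeq starts of TUBB2A (chr6:3157545-3157644) and TUBB2B (chr6:3227654-3227753) are shown because these genes are nearly alike in their coding sequence and not in their change. They are from GRCh38.p14, minus strand, with matches to the motifs searched in capitals.
TUBB2A: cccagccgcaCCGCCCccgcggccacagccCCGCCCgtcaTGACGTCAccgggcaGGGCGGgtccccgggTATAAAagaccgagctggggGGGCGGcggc
TUBB2B: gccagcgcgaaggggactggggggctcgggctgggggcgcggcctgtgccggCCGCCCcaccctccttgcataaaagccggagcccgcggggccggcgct
An alignment of the 2 stretches had 55 identical bases of 98 aligned. Whether these bases have any part in the change of either gene was not tested.

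Motifs were searched on both strands in RefSeq windows from 250 bases before to 50 after each start, found for all 10 members (13 windows in all). TGACGTCA, the cyclic AMP response element, and TATAAA, a form of the TATA box, were each found in TUBB2A only, and in 1.85% and 11.5% of all 35116 windows. Other forms of the TATA box were not searched. GGGCGG, the GC box, was in windows of 6 members and in 45% of all windows, and CCAAT was in 6 members and in 34.6%. A member with several windows counts once if any of them matched, while the percentages count single windows, so the units differ. TGATGNAA, the CEBP-ATF response element, was in 0 members and in 3.62% of all windows. A match is a description of the letters, and the lack of one says only that these letters are not in the window.

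TUBB (chr6:30720201-30725426, plus strand), the leading beta-tubulin of dividing cells, was at 1653, 1648 and 1708 CPM in siControl and at 1407, 1445 and 1407 CPM in siPOLR3A. The groups did not overlap, and TUBB changed by -0.23 ± 0.0233 on the log2 scale (SE), with adjusted p = 1.06e-06. Another 12 transcripts of TUBB from alternate copies of the region held 12.1% to 15.2% of its TPM and are not in these values. With them added, an alternative chosen after seeing the data, the log2 fold change was -0.26.

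TUBB4B (chr9:137241213-137243707, plus strand), a widely expressed beta-tubulin, was at 254, 266 and 264 CPM in siControl and at 217, 208 and 212 CPM in siPOLR3A. The groups did not overlap, and TUBB4B changed by -0.30 ± 0.0256 on the log2 scale (SE), with adjusted p = 2.17e-07.

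Summed over its members, beta-tubulin mRNA was at 1215 ± 37.9 TPM in siControl and 998 ± 5.23 TPM in siPOLR3A, and alpha-tubulin mRNA at 1840 ± 72.3 and 1649 ± 29.9 TPM (SD, n = 3). TUBB gave the largest difference between the group means of the beta genes, -117 TPM, followed by TUBB2B at -52.3 and TUBB4B at -44.0 TPM. The ratio of alpha to beta TPM was 1.48 to 1.55 in siControl and 1.63 to 1.66 in siPOLR3A, with no overlap. An exact two-sided permutation test of this ratio gave p = 0.1, the smallest that 3 against 3 libraries allow. With the alternate copies of TUBB added the means were 1.36 ± 0.0387 and 1.496 ± 0.0262. Without those copies, the ratio was 1.545 to 1.586 in DMSO and 1.605 to 1.718 in ML60218, also with no overlap and not tested.

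With ML60218, TUBE1 was higher and most other members were lower. TUBE1 was at 47.4, 47.2 and 49.1 CPM in DMSO and at 85.3, 92.1 and 101.1 CPM in ML60218. Every ML60218 library lay above every DMSO library, with ML60218 replicate 3 the highest. The fold was 1.94, or 0.96 ± 0.0589 on the log2 scale (SE), and ranged from 0.89 to 1.03 over 18 alternatives, the lowest without ML60218 replicate 3. Of the 15461 genes tested, 98.1%, itself included, had a log2 fold change as low or lower. These values chose the set and support nothing further.

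In CPM the groups of this comparison did not overlap in 9 of the 10 members, 7 lower and 2 higher with ML60218, beside 51.9% of all genes tested, 27% lower and 24.8% higher. In TPM they did not overlap in 6 members, 4 lower and 2 higher, since TUBG1, TUBA1B and TUBB2A then overlapped as TUBA1A did. No share over all genes was computed in TPM, so this count has nothing to be set beside. ML60218 replicate 3 was the lowest of the treated libraries in 8 of the 10 members and the highest in TUBE1.

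TUBB4B was at 328, 324 and 316 CPM in DMSO and at 246, 218 and 190 CPM in ML60218, a log2 fold change of -0.56 ± 0.0899 (SE). TUBA1C was at 410, 413 and 399 CPM in DMSO and at 319, 313 and 269 CPM in ML60218, a log2 fold change of -0.44 ± 0.0606. TUBD1 was at 26.1, 26.6 and 26.9 CPM in DMSO and at 20.1, 20.6 and 19.4 CPM in ML60218, a log2 fold change of -0.41 ± 0.05. In these 3 genes all ML60218 libraries were below all DMSO libraries.

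TUBB was at 1723, 1719 and 1675 CPM in DMSO and at 1482, 1412 and 1275 CPM in ML60218, a log2 fold change of -0.30. TUBB2A (46.1 to 49.1 against 37.8 to 43.5 CPM), TUBA1B (1544 to 1568 against 1283 to 1433 CPM) and TUBG1 (107 to 109 against 92.6 to 100.5 CPM) had log2 fold changes of -0.22, -0.19 and -0.16. TUBA1A overlapped between DMSO (130 to 142 CPM) and ML60218 (120 to 132 CPM).

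TUBB2B, which fell most in the knockdown, was at 129, 127 and 131 CPM in DMSO and at 132, 143 and 137 CPM in ML60218. All ML60218 libraries were above all DMSO libraries, by a log2 fold change of 0.09. Summed with TUBB2A the change was 0.02.

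Every member had a higher log2 fold change with limma on log2(TPM + 1), so the falls were closer to 0 and the rises larger. The limma fit differs from the edgeR fit in length correction, pseudocount and model as well as scaling. The median log2 fold change of all genes with ML60218 was 0.11 with limma, against 0.01 in the edgeR fit. In the limma fit TUBE1 was at 1.03, TUBB4B at -0.44, TUBA1C at -0.27, TUBB at -0.17, TUBD1 at -0.12, TUBB2A at -0.07, TUBA1B at -0.04 and TUBG1 at -0.02. TUBA1A changed sign there, to 0.05, and TUBB2B was at 0.23. With total count scaling alone the members kept their signs, with TUBD1 at -0.34, TUBG1 at -0.09 and TUBA1A at -0.02.

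TUBE1 mRNA is annotated as several transcripts, and only 1 of the 11 in the table is classed as protein coding. In DMSO that transcript held 38.01% ± 1.16 of the TUBE1 TPM, and in ML60218 35.2% ± 2.46 (SD, n = 3). It was at 15.7, 15.8 and 15.7 TPM in DMSO and at 26.4, 32.1 and 31.8 TPM in ML60218, a ratio of means of 1.92. The 5 retained-intron transcripts together were at 19.4, 17.9 and 17.5 TPM in DMSO and at 37.4, 41.4 and 51.2 TPM in ML60218, a ratio of 2.37. The 3 transcripts annotated for nonsense-mediated decay went from 6.48 ± 0.693 to 10.5 ± 0.839 TPM, a ratio of 1.61.

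Every one of these 3 classes was higher in all ML60218 libraries than in any DMSO library. In the knockdown the ratios of means were 1.03 for the coding transcript, 0.927 for retained introns and 1.07 for nonsense-mediated decay, and the libraries of the groups overlapped in each. The division of reads among overlapping transcripts is the deposited estimate, and its error is unknown.

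**Figure D3:**
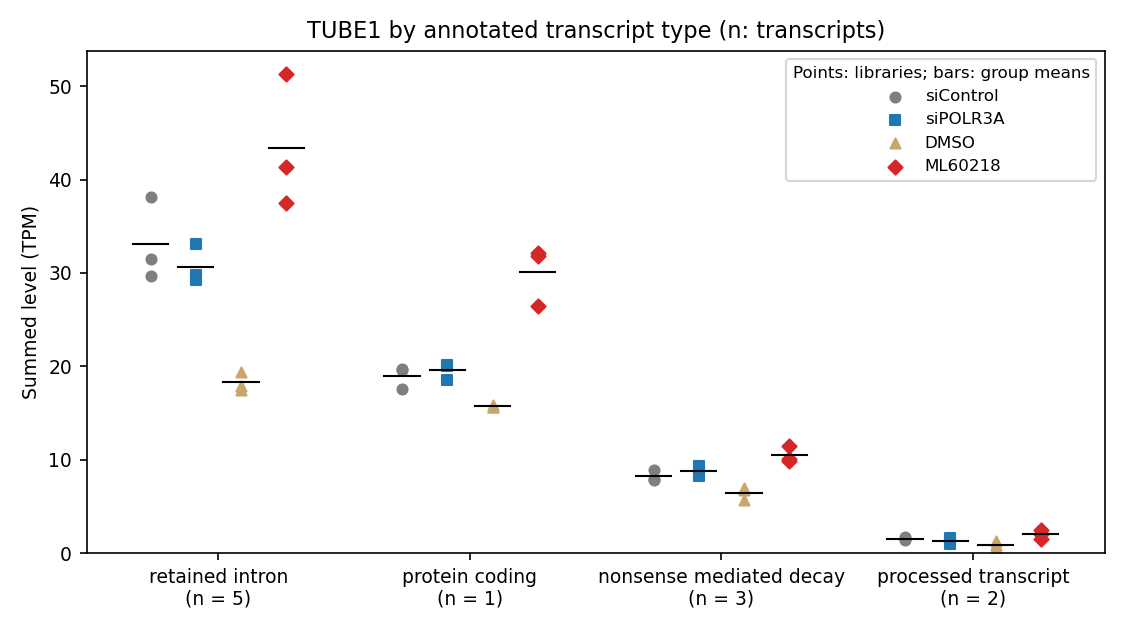
Summed TPM of TUBE1 transcripts by annotated type, with n the number of transcripts, points for libraries and bars for means of 3. The retained-intron class goes from 17.5 to 19.4 TPM in DMSO to 37.4 to 51.2 TPM in ML60218, and the coding transcript from about 15.7 to between 26.4 and 32.1 TPM.

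In the other members the coding transcripts held most of the TPM. Their mean share was at least 97.06% in TUBA1A, TUBA1B, TUBB, TUBB2A, TUBB2B, TUBB4B and TUBG1 in each of the 4 groups. In TUBA1C it was 78.9% in siControl and 80.3% in siPOLR3A, and in TUBD1 it was 89.2% ± 4.57 in DMSO and 77.1% ± 6.73 in ML60218.

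TUBE1 and TUBD1 each share a short upstream stretch with a gene on the other strand. It is shown for both, from GRCh38.p14 and in the direction of the tubulin gene, and holds none of the 5 motifs. The first lies between TUBE1 and FAM229B (chr6:112087530-112087598, 69 bases), the second between TUBD1 and RPS6KB1 (chr17:59892946-59893045, 100 bases).
TUBE1: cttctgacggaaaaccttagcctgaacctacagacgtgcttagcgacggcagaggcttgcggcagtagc
TUBD1: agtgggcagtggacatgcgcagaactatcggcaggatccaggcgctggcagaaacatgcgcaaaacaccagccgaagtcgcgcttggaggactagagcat

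FAM229B was at 11.9 to 14.6 CPM in ML60218 and 13.7 to 14.7 CPM in DMSO, which overlap, with a log2 fold change of -0.16 (adjusted p = 0.182), beside 0.96 for TUBE1. On its other side TUBE1 overlaps CCN6 by 193 bases, and CCN6 stayed below 1 CPM in all 12 libraries. In the knockdown FAM229B had a log2 fold change of -0.17 (adjusted p = 0.0256), a call lost in 7 of 18 alternatives, and CCN6 one of -1.64 (adjusted p = 0.00566) at means of 0.46 and 0.148 CPM. With ML60218 CCN6 went from 0.187 ± 0.0552 to 0.416 ± 0.198 CPM with no overlap, a log2 fold change of 1.16 that did not pass the test (adjusted p = 0.0511), and passed it in 6 of 16 alternatives (adjusted p from 0.0296 to 0.277). RPS6KB1, which encodes the S6 kinase of the mTOR pathway, fell with TUBD1 in the knockdown, from 135 ± 1.31 to 70.5 ± 0.699 CPM (log2 fold change -0.94, adjusted p = 2.13e-12). With ML60218 it went from 129 ± 2.41 to 123 ± 3.32 CPM and did not pass the test (adjusted p = 0.142). VMP1, on the other side of TUBD1, had a log2 fold change of -0.09 in the knockdown (adjusted p = 0.027, lost in 9 of 18 alternatives) and -0.21 with ML60218 (adjusted p = 0.00252, lost in 1 of 18 alternatives).

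TUBG1 overlaps RETREG3, an endoplasmic reticulum turnover gene on the opposite strand, by 948 bases. RETREG3 fell from 63.8 ± 2.32 to 24.01 ± 1.11 CPM in the knockdown (log2 fold change -1.41, adjusted p = 4.65e-12), beside -0.12 for TUBG1, and had a log2 fold change of -0.12 with ML60218 (adjusted p = 0.0512), which passed the test in 5 of 18 alternatives and changed sign in 1. The kit marks strand, and whether the estimates used it is not given in the sources used here. TUBG2, the second gamma-tubulin gene, rose from 14.9 ± 0.713 to 16.8 ± 0.625 CPM (log2 fold change 0.17, adjusted p = 0.0283), a call lost in 8 of 18 alternatives, where the adjusted p reached 0.151.

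Of the 13 tubulin genes outside the set, 10 were tested in the knockdown, and 3 passed the test as higher and 2 as lower (1 to 3 each over the alternatives, with 1 higher without siControl replicate 3 or siPOLR3A replicate 1 or 3). Apart from TUBG2, these were 4 genes. TUBB6 fell from 42.2 ± 1.5 to 14.8 ± 0.972 CPM (log2 fold change -1.51, adjusted p = 2.89e-11). TUBA4A rose from 24.3 ± 0.669 to 33.3 ± 1.1 CPM (0.45, adjusted p = 1.2e-06). TUBB3 rose by 0.32 and TUBB4A fell by 0.10 on the log2 scale, calls that were lost in 7 and 5 of 18 alternatives. With ML60218, 9 were tested, 2 passed as lower (TUBB6 at -0.31 and TUBB4A at -0.23) and 0 as higher, beside 20.9% lower and 18.1% higher of all genes tested and 39% in either direction. That count of lower genes was 0 with limma on TPM.

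Genes that act with the members moved in both directions in the knockdown, beside 27.4% of all genes tested called higher and 29.2% lower. In the gamma-tubulin and augmin list, 6 of 21 rose and 8 fell, with TUBGCP6, a ring complex subunit, at 0.46, HAUS2 at 0.37, HAUS4 at -0.55 and TUBGCP4 at -0.41 on the log2 scale. In the centriole list, 3 of 22 rose and 8 fell. WDR90, a centriole wall protein, rose by 0.91 and TEDC1, a partner of delta- and epsilon-tubulin, by 0.64, while CEP63 fell by 0.89 and CEP97 by 0.46. Over the alternatives 5 to 8 rose and 6 to 9 fell in the first list, and 3 to 5 rose and 5 to 9 fell in the second, where 5 fell without siControl replicate 1. The list medians were -0.0017 and -0.06.

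In the folding list, which holds the CCT chaperonin, prefoldin and the tubulin cofactors, 6 of 21 rose and 7 fell in the knockdown (3 to 8 and 4 to 9 over the alternatives). The cofactor TBCD rose by 0.52 and CCT3 by 0.26, and the prefoldin subunit PFDN2 fell by 0.50 and TBCEL by 0.23 on the log2 scale, the last lost in 3 of 18 alternatives. In the autoregulation list, 2 of 12 rose and 5 fell (1 to 4 and 4 to 5, with 1 that rose without siControl replicate 2). The deadenylase subunits CNOT7 and CNOT6 had log2 fold changes of 0.63 and -0.55, CNOT9 and CNOT8 of 0.09 and -0.39, with CNOT9 lost in 3 of 18 alternatives. TTC5 and SCAPER, named after their values were seen, were at -0.03 and -0.01 and did not pass the test (adjusted p = 0.584 and 0.917).

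Among enzymes that modify tubulin, of which 2 of the 22 listed were not analysed here, 7 of 18 tested rose and 6 fell in the knockdown (4 to 8 and 4 to 7 over the alternatives, with 4 that rose without siControl replicate 3 or siPOLR3A replicate 1). The polyglutamylase TTLL11 rose by 0.99 and TTLL12 by 0.37, and the deglutamylase AGTPBP1 fell by 0.77 and the detyrosinase VASH1 by 0.74 on the log2 scale. Among microtubule-associated and severing proteins, 5 of 26 rose and 13 fell, with 4 to 11 and 8 to 13 over the alternatives, beside the same 27.4% and 29.2% of all genes. STMN3, a tubulin-binding stathmin, rose from 9.43 ± 0.676 to 27.4 ± 0.813 CPM (log2 fold change 1.54, adjusted p = 9.02e-11) and KATNAL1, a katanin-like severing protein, by 0.92. MAP1A fell by 1.06 and CLIP2 by 0.82 on the log2 scale.

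With ML60218, 11 of the 22 genes of the centriole list passed the test as higher and 0 as lower, beside 18.1% and 20.9% of all genes tested. Over the alternatives 7 to 14 were higher (7 without DMSO replicate 2 or 3) and 0 to 2 lower, with 2 lower without ML60218 replicate 1. POC5, a centriole lumen protein, rose by 0.54 and SPICE1 by 0.51, and the list's median log2 fold change was 0.12 against 0.01 over all genes. In the folding list 12 of 21 passed as lower and 0 as higher, beside the same 20.9% and 18.1%, with PFDN6 at -0.28 (a call lost in 9 of 18 alternatives) and PFDN1 at -0.21. That count was 0 with limma on TPM, 1 under total count scaling, 6 under upper quartile scaling, and 6, 4 and 6 without DMSO replicate 1, 2 and 3.

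The remaining lists were mixed with ML60218. In the gamma-tubulin list 4 of 21 rose (NINL by 0.29, PCNT by 0.27) and 2 fell (TUBGCP4 by 0.17, MZT1 by 0.15), and these 4 named calls were lost in 5, 3, 2 and 4 of 18 alternatives. Over the alternatives 2 to 6 rose and 0 to 3 fell, with 2 that rose without DMSO replicate 1 and 1 that fell without DMSO replicate 1 or 2. In the autoregulation list 3 of 12 rose and 5 fell (2 to 4 and 0 to 5 over the alternatives), with SCAPER at 0.45, CNOT10 at 0.21, CNOT9 at -0.20 and CNOT3 at -0.19, the last 2 lost in 1 and 2 of 18 alternatives. TTC5 was at -0.07 and did not pass the test (adjusted p = 0.23).

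Of the 19 modifying enzymes tested with ML60218, 2 rose (AGTPBP1 by 0.36, TTLL3 by 0.21, the second lost in 5 of 18 alternatives) and 2 fell (TTLL12 by 0.60, VASH1 by 0.30). Over the alternatives 1 to 6 rose and 1 to 2 fell, and the higher count moved by over 1.5 times in 10 of 18, to 1 without DMSO replicate 1 or 2 or without ML60218 replicate 1 or 3. Of the 26 associated and severing proteins 5 rose, led by MAP1B at 0.42 and KATNA1 at 0.31, and 8 fell (3 to 7 and 2 to 9 over the alternatives, with 3 that rose without DMSO replicate 1 or 3), led by MAP1S at -0.46 and STMN3 at -0.32. VASH1 and STMN3 were each lost in 1 of 18 alternatives. Whether the effects of the 2 treatments on these genes differ was not tested.

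**Figure D4:**
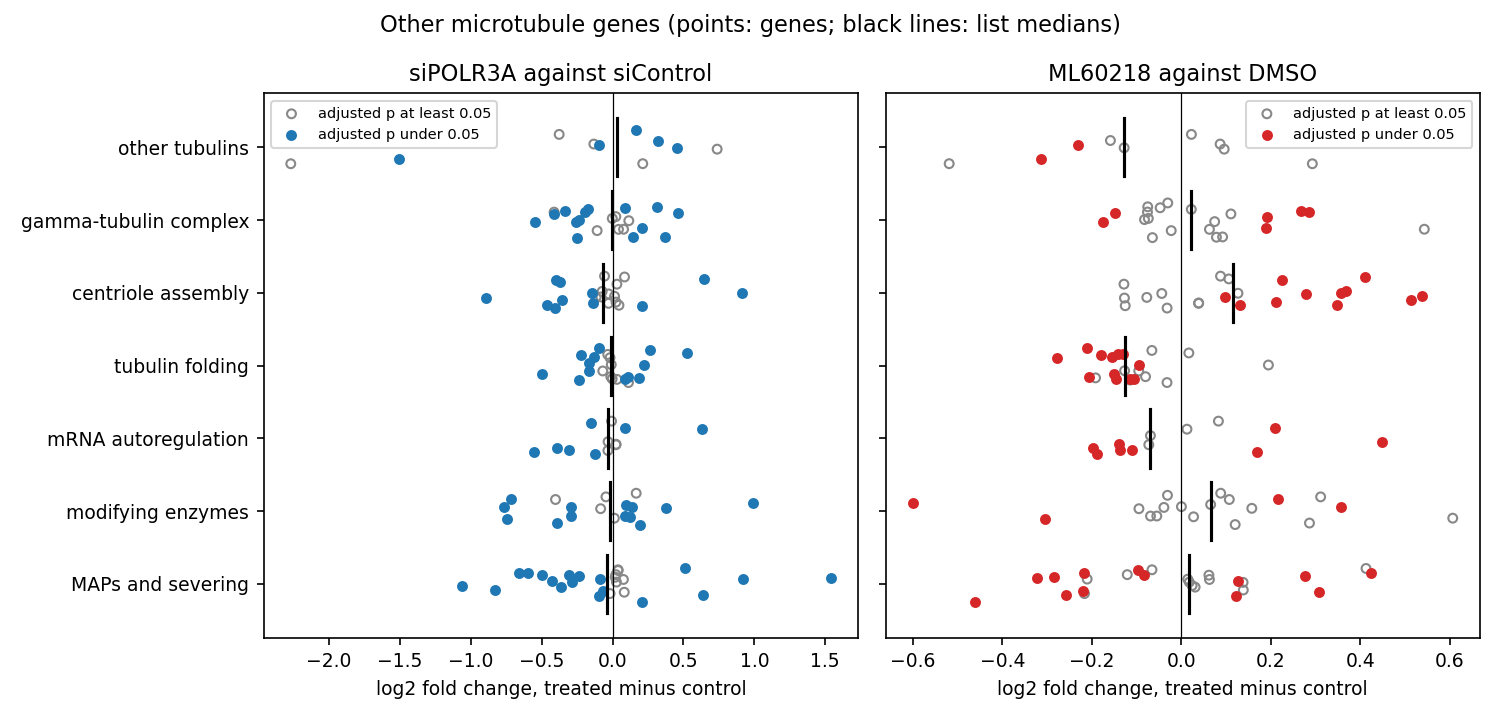
Log2 fold change (x axis) of each tested gene in 7 lists of other microtubule genes, after siPOLR3A on the left and with ML60218 on the right, on different scales. Filled points passed an adjusted p of 0.05 and black lines are list medians; the centriole list has 11 filled points with ML60218, all above 0.

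The genes whose pattern was most like that of TUBE1 were sought among 10293 protein-coding genes, as Pearson's r of log2 CPM over the 12 libraries, centred within each experiment. They were ZNF555 (0.994), SLC7A11 (0.993), POLI (0.992), LRRC8D (0.991), and STC2, CTH, TSC22D3 and ZBTB25 (each 0.988). The siRNA libraries lay near their means in all of these genes, so the r values rest on the gap between DMSO and ML60218, and 0 of the 8 were among the first 8 by Spearman's rho. SLC7A11, the cystine transporter gene, was at a mean of 26.7 CPM in DMSO and 90.0 in ML60218, a log2 fold change of 1.76 beside 0.96 for TUBE1. CTH, which makes cysteine from cystathionine, was at 1.34 and ZNF555, a zinc finger gene, at 0.62. In the knockdown these 8 genes had log2 fold changes from -0.20 to 0.14.

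**Figure D5:**
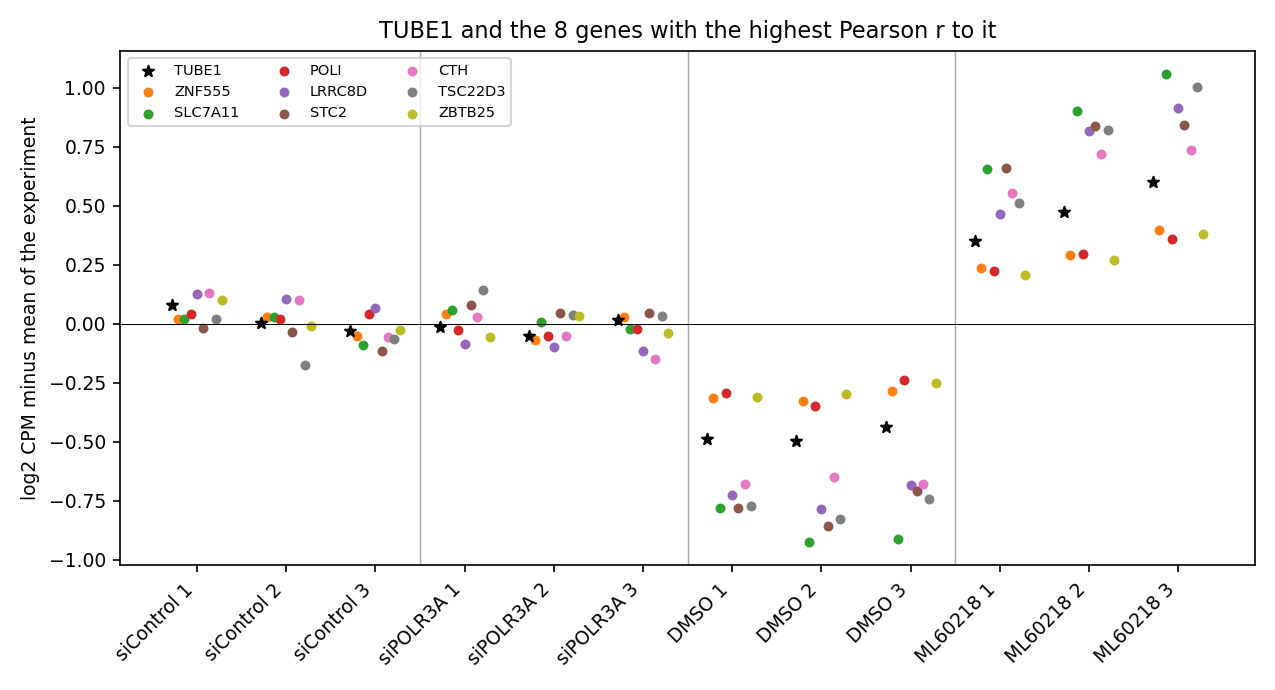
Log2 CPM minus the mean of the experiment for TUBE1 (stars) and the 8 genes with the highest Pearson r to it (circles), in each of the 12 libraries. The siRNA libraries lie near 0, and for all 9 genes the DMSO libraries lie below 0 and the ML60218 libraries above it.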

How the data were processed

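Messenger RNA of 12 HEK293T libraries was sequenced with 151 cycles at each end. The deposited table gives expected counts (estimated reads) and TPM per Ensembl transcript, and per the file headers its columns are those salmon writes; its version, settings and transcript release are not given in the sources used here. The submitters' processing notes name bcl2fastq 2.20, Trim Galore, DESeq2 and hg38. Column names gave experiment, arm and replicate, and 0 columns of sample values were left unmapped.

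The design had assumed counts per gene. Transcripts were matched by stable identifier to GENCODE 29 (GRCh38; 158359 of 194142, 81.6%; unmatched transcripts held 8.37% to 8.97% of reads), and the estimated reads of a gene's transcripts were added up and rounded to whole counts. The 6 libraries of an experiment were fitted separately from the other 6 in R 4.3.3, by edgeR 4.0.16: filterByExpr (minimum count 10, minimum total 15), TMM scaling, robust two-sided quasi-likelihood test, Benjamini-Hochberg adjustment, call at adjusted p under 0.05. Scripts were tested on simulated data. Alternatives used DESeq2 1.42.0, limma 3.58.1 on log2(TPM + 1), other scalings, filters, transcript assignments and offsets, a replicate block and leaving out each library.

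Members and lists were chosen with earlier results of these data known. Named were all members, the 2 largest called rises and falls of each list and comparison, the neighbours of TUBE1, TUBD1 and TUBG1, and the 8 genes most like TUBE1 whose mean log2 CPM was 3 or more. Motif windows are RefSeq's, GRCh38.p14. The reference transcripts can differ in version from those of the table.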

Additional observations from a re-analysis of the deposited data

How the results depend on the processing

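In the knockdown, 7 to 9 members were called over 18 alternatives, all as lower, including 9 in each fit that left out 1 library. TUBE1 changed sign there without passing the test, to 0.021 under upper quartile and 0.011 under total count scaling; with DESeq2 9 members were called. With ML60218 the log2 fold change of TUBE1 kept its sign in all 18 alternatives, from 0.89 to 1.03. The summed reads of TUBB2A and TUBB2B were at 0.016 with ML60218, beside -0.22 for TUBB2A and 0.09 for TUBB2B taken singly. RPS6KB1 with ML60218 was at 0.0032 under total count scaling, and on the TPM scale RPS6KB1 was at 0.074, TUBGCP4 at 0.066, RETREG3 at 0.038 and CNOT3 at 0.024, each opposite in sign to the TMM fit; the cause was not tested.

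Correlations of same-numbered deviations ran from -0.0736 to 0.0674, and those of different-numbered deviations from -0.0628 to 0.0721. Since these ranges were alike, they cannot decide whether the replicate numbers of the labels pair the libraries. With a replicate block, 9 members were called in the knockdown (8493 of all genes, against 8722 without), TUBE1 with ML60218 was at 0.95, and 5393 genes were called with ML60218 against 6029. Estimated counts of genes that share sequence carry an error that 3 libraries a group do not show.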
